A study of Rattus norvegicus with 24 samples.

Results

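Genes of the extracellular matrix were followed in the left dorsal striatum of rats given the synthetic cathinone MDPV (methylenedioxypyrovalerone), which blocks dopamine and noradrenaline uptake. The set holds collagens (Col and a number), matrix metalloproteinases (Mmp and a number), their tissue inhibitors (Timp), the ADAMTS proteases and ADAMTS-like proteins (Adamts), laminin chains (Lama, Lamb, Lamc), and Ctgf, Cyr61, Fn1, Dcn, Lum and Bgn. On the array 101 genes carried such a name, and 70 of them were measured, of 20902 genes measured in all. A gene counted as measured when the scanner software had called a probe well above background on 4 or more of the 8 arrays of 1 treatment group. Its probe with the highest mean stood for it. The choice used names and detection, and no difference between groups. Of the 70 members 40 were well above background on all 24 arrays. Just inside the rule were Adamtsl5 (4 of 8 acute arrays), Lum (5 of 8 acute), Col8a1 (4 of 8 chronic) and Col24a1 (4 of 8 chronic and 4 of 8 acute), and just outside were Mmp3 and Col22a1 (3 of 8 acute each) and Col23a1 (3 of 8 chronic).

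The extracellular matrix of brain tissue differs from that of most organs. Fibrillar collagens lie mainly in the meninges and around larger vessels, type IV collagen and laminins form the basement membranes of vessels and of the pial surface, and the space between neurons is filled by proteoglycans and hyaluronan. Metalloproteinases and ADAMTS proteases cut these proteins, the inhibitors of the Timp family block them, and in striatum and other reward regions such cutting has been studied as a part of plasticity after psychostimulants.

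The rats were male Long Evans rats of 80 to 90 days, and each had 1 intraperitoneal injection on each of 5 days. In the chronic group all 5 injections were MDPV, in the acute group the last 1 was MDPV and the other 4 were saline, and in the saline group all 5 were saline. The MDPV dose was 1 mg/kg, and the tissue was collected 24 h after the last one. Each group had 8 one-colour Agilent arrays, and arrays that shared a title letter were averaged, which left 6 units per group, the number the series gives. The arrays lay on 3 slides of 8, each with all 3 groups in unequal numbers. Differences within a slide are between means of its single arrays, not of units. Whether a shared letter stands for 1 rat is not given in the sources used here, so p-values measure the spread between these units, which may be partly technical.

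Non-control spots were well above background at a rate of 50.7% to 71.3% per array, and none was saturated. Striatal projection neuron markers (9 of 10 listed were measured) were well above background on all 24 arrays. The 6 measured choroid plexus markers, in contrast, had a mean level between -6.39 and 0.57 in chronic, between -5.50 and -1.88 in acute and between -5.84 and 0.56 in saline arrays. Chronic replicate 8, saline replicate 5 and saline replicate 4 had the 3 highest choroid plexus levels, and saline replicate 4 had the lowest level of striatal projection neuron markers (1.89). Saline replicate 3 came close behind saline replicate 4 in choroid plexus level (-0.60 and -0.25). The same 3 arrays had the lowest cortical excitatory neuron levels (-4.47, -4.70 and -4.27), with saline replicate 2 next at -2.93. Saline replicates 4 and 5 also had the highest thalamus and septum levels. Values without these 3 arrays thus leave out arrays that differ in several marker lists. All levels are given as log2 signal minus the 75th percentile of that array, so a value of -3 means a signal 3 log2 steps below that percentile. Levels of different genes come from different probes and are not compared.

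Ctgf and Cyr61 (now named Ccn2 and Ccn1) encode matrix-bound signalling proteins that are textbook targets of the YAP and TEAD factors, and Ctgf was the member with the smallest p among those higher in both MDPV groups. Their promoter bases are shown for that reason, with that of Timp1, an inhibitor gene that varied with the fibrillar collagens. Each is the 250 bases before the gene's start in RefSeq (build GRCr8), on the gene's strand, and capitals mark the TEAD motif GGAATG or its reverse complement CATTCC. The Ctgf bases lie at chr1:22624615-22624864 (minus strand), those of Cyr61 at chr2:237225690-237225939 (minus strand) and those of Timp1 at chrX:3771123-3771372 (minus strand).
Ctgf: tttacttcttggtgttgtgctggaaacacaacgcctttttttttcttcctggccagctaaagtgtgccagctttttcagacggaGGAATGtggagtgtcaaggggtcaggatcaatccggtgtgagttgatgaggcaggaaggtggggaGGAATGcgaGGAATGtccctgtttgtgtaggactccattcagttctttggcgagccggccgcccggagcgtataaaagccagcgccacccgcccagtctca
Cyr61: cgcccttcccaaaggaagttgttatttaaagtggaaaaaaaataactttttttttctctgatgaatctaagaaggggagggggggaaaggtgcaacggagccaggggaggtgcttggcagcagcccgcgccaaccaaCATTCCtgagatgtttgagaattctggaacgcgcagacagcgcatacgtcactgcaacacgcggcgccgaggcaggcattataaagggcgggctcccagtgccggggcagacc
Timp1: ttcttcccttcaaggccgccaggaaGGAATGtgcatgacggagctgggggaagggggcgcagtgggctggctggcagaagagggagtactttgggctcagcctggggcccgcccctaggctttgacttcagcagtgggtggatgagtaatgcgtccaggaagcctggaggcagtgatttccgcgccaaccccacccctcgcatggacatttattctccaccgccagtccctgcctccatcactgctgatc

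The Ctgf window held the motif 3 times, starting 166, 101 and 92 bases before the gene's start, which 0.0807% of the 33469 RefSeq promoters did at least as often. Cyr61 held it once on the other strand and Timp1 once. Over all promoters 12.1% held the TEAD motif in these 250 bases, and 9 of the 54 members with a promoter entry did. The AP-1 motif TGANTCA was in 6.34% of all promoters and in 0 of the 54, and the CArG box, by that name, in 1.5% of all promoters and in 1 of the 54 (Lama2). Both strands were searched, the motifs do not overlap in the windows shown, and a match describes letters only.

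No member differed between any pair of groups after adjustment, and neither did any other gene. In limma with Benjamini-Hochberg adjustment over all 20902 genes, 0 of 70 members passed an adjusted p of 0.05 in chronic against saline (smallest adjusted p = 0.999), 0 in acute against saline (1.0) and 0 in chronic against acute (0.96). Over all genes 0.0% passed in each comparison. At an unadjusted p under 0.05, 2 of 70 members were counted in chronic against saline, where 2.87% of all genes were. In acute against saline 3 of 70 members were counted, against 1.59% of all genes, and in chronic against acute 0 of 70, against 2.48%. The chronic and acute comparisons share the saline arrays.

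The members' median log2 difference was 0.03 for chronic minus saline (all genes 0.02), with 38 of 70 higher (54.3%, all genes 56.5%). For acute minus saline it was -0.04 (all genes 0.00), with 25 of 70 higher (35.7%, all genes 49.1%). For chronic minus acute it was 0.04 (all genes 0.02), with 45 of 70 higher (64.3%, all genes 56.5%). These splits turn on the background correction: with normexp (offset 50), 20, 14 and 28 of the 70 were higher in the same 3 comparisons, while 32.3%, 36.1% and 39.1% of all genes were. Without chronic replicate 8 and saline replicates 4 and 5 the acute minus saline count was 46 of 70 higher (65.7%, all genes 46.7%). The median SE of a member's difference was 0.20, against 0.14 for all genes, so a typical member was measured less sharply than a typical gene.

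**Figure D1:**
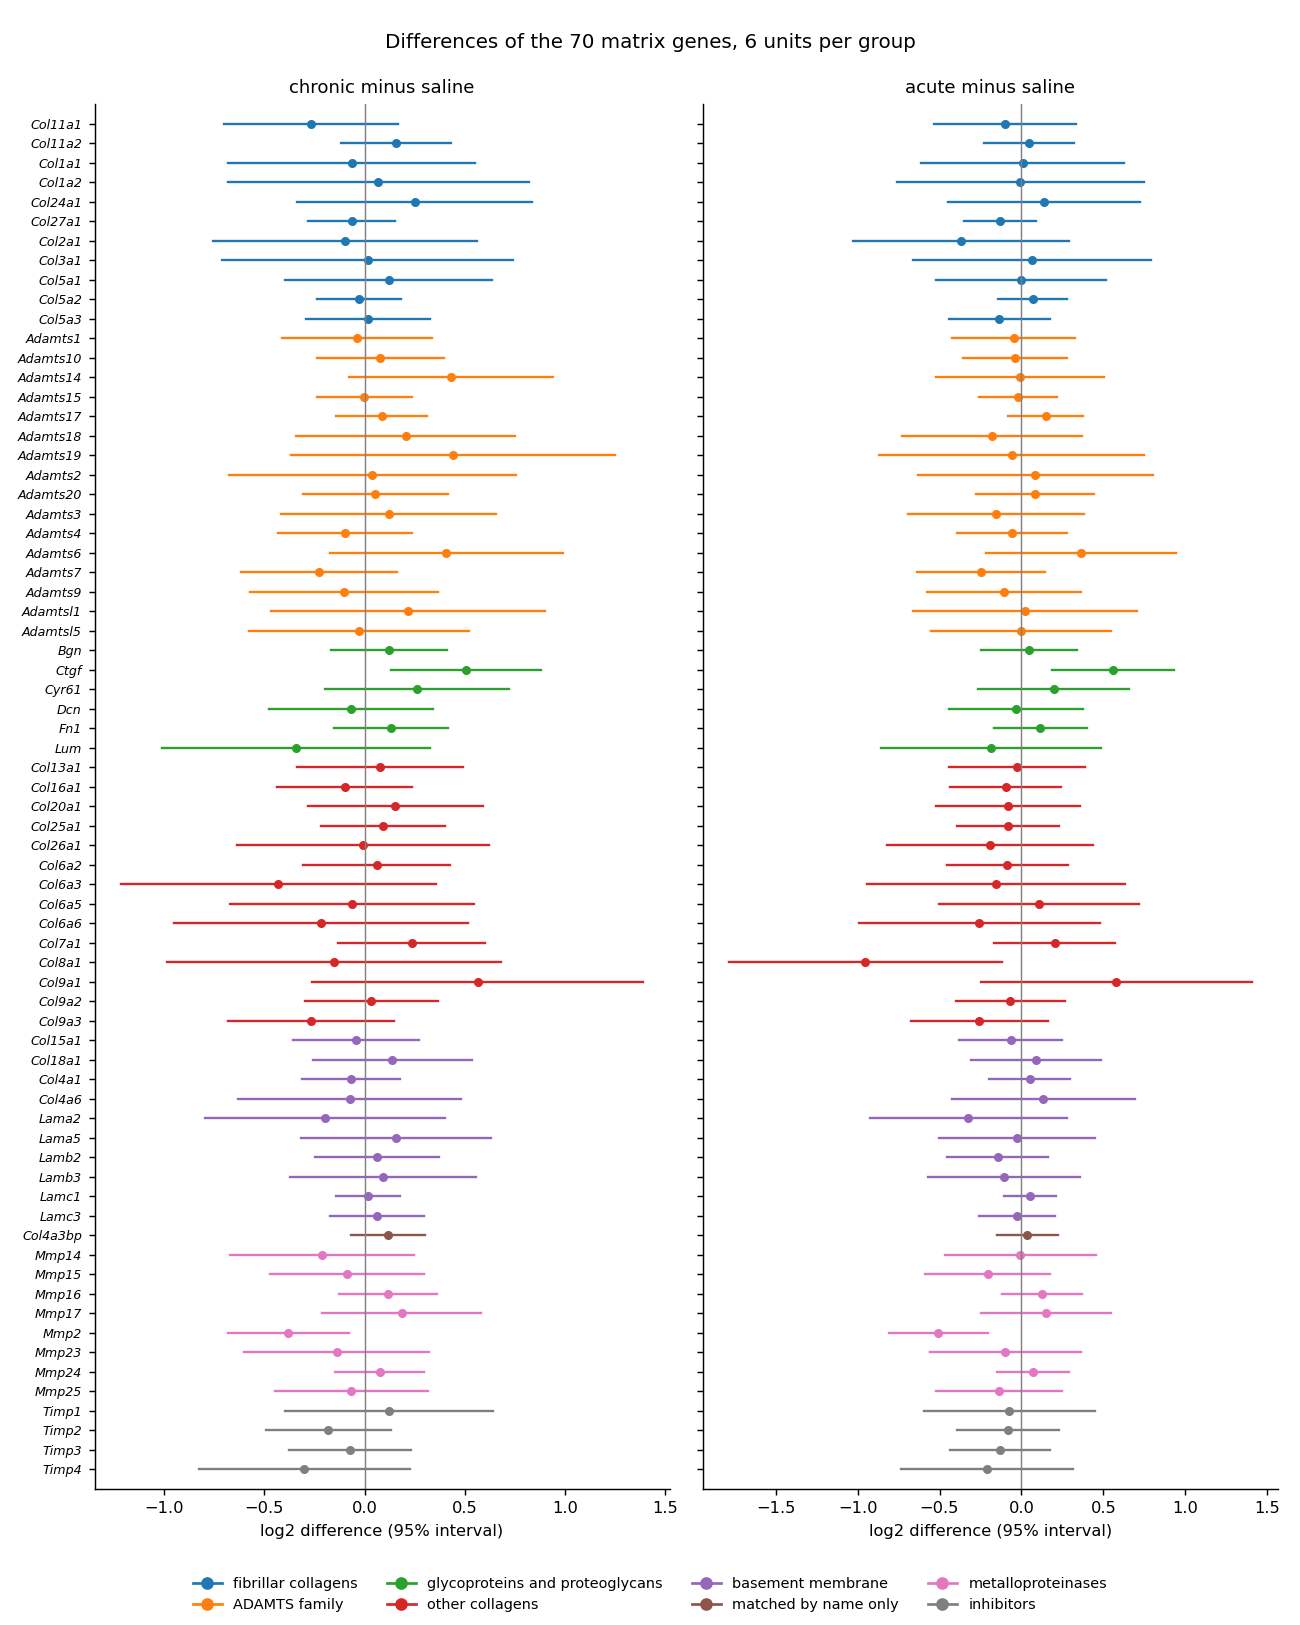
Log2 differences of the 70 members with 95% intervals, chronic minus saline on the left and acute minus saline on the right, coloured by role (6 units per group). The intervals of Mmp2 and Ctgf lie on 1 side of 0 in both panels and that of Col8a1 in the acute panel, and those of all other members cross 0.

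Mmp2, which encodes gelatinase A, a protease that cuts type IV collagen and denatured collagens, had the smallest p of the members that were lower in both MDPV groups, and did not pass after adjustment. Its level ran from -4.13 to -2.28 in chronic arrays (median -3.77), from -3.94 to -3.37 in acute arrays (median -3.76) and from -3.73 to -2.31 in saline arrays (median -3.34). The groups overlapped, chronic replicate 8 stood as high as the highest saline array, and all acute arrays lay below the saline median. Over units the means were -3.61 ± 0.31 in chronic, -3.74 ± 0.14 in acute and -3.23 ± 0.29 in saline units (SD, n = 6 each). The log2 difference was -0.38 ± 0.14 (SE; 95% interval -0.68 to -0.08) for chronic minus saline (limma, adjusted p = 0.999) and -0.51 ± 0.14 (-0.81 to -0.20) for acute minus saline (limma, adjusted p = 1.0). Within slides 1, 2 and 3 the chronic difference was -0.48, -0.80 and 0.58, and the acute one was -0.29, -1.02 and -0.17. On slide 3 the only chronic arrays were replicates 7 and 8, and the only saline arrays were replicates 7 and 8. The second probe of Mmp2, well above background on 12 of 24 arrays, gave 0.26 ± 0.30 and -0.07 ± 0.30 in place of these.

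Ctgf, connective tissue growth factor, was higher in both MDPV groups by an unadjusted p and did not pass after adjustment. Its level ran from -2.89 to -1.45 in chronic arrays (median -1.76), from -2.31 to -1.23 in acute arrays (median -1.84) and from -3.17 to -1.69 in saline arrays (median -2.29). All 3 groups overlapped, and the 3 lowest arrays were saline replicate 4, saline replicate 5 and chronic replicate 8. Unit means were -1.90 ± 0.28 in chronic, -1.85 ± 0.15 in acute and -2.41 ± 0.46 in saline units (SD, n = 6 each). The log2 difference was 0.51 ± 0.18 (95% interval 0.13 to 0.88) for chronic minus saline (limma, adjusted p = 0.999) and 0.56 ± 0.18 (0.18 to 0.93) for acute minus saline (limma, adjusted p = 1.0). Slides 1, 2 and 3 gave 0.33, 1.04 and -0.28 for chronic minus saline and 0.23, 0.78 and 0.24 for acute minus saline. Its probe lies at chr1:21327574-21327633 of the rat build rn4, and the files do not say in which part of the transcript.

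Col8a1 encodes a chain of the short type VIII collagen of vessel walls. It was well above background on 4 of 8 chronic, 3 of 8 acute and 3 of 8 saline arrays, so much of its range lies near the detection limit. It counted as measured through the chronic group alone, so its differences from that group are no independent support. Its level ran from -7.18 to -3.67 in chronic arrays (median -6.28), from -8.09 to -6.30 in acute arrays (median -6.98) and from -7.84 to -3.78 in saline arrays (median -6.44). Chronic replicate 8, saline replicate 5 and saline replicate 4 were its 3 highest arrays. The log2 difference was -0.95 ± 0.40 (95% interval -1.79 to -0.12) for acute minus saline (limma, adjusted p = 1.0), -0.15 ± 0.40 for chronic minus saline and 0.80 ± 0.40 for chronic minus acute (limma, adjusted p = 0.96). Without those 3 arrays the acute difference was -0.26. Its probe lies at chr11:43733411-43733470 (rn4).

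**Figure D2:**
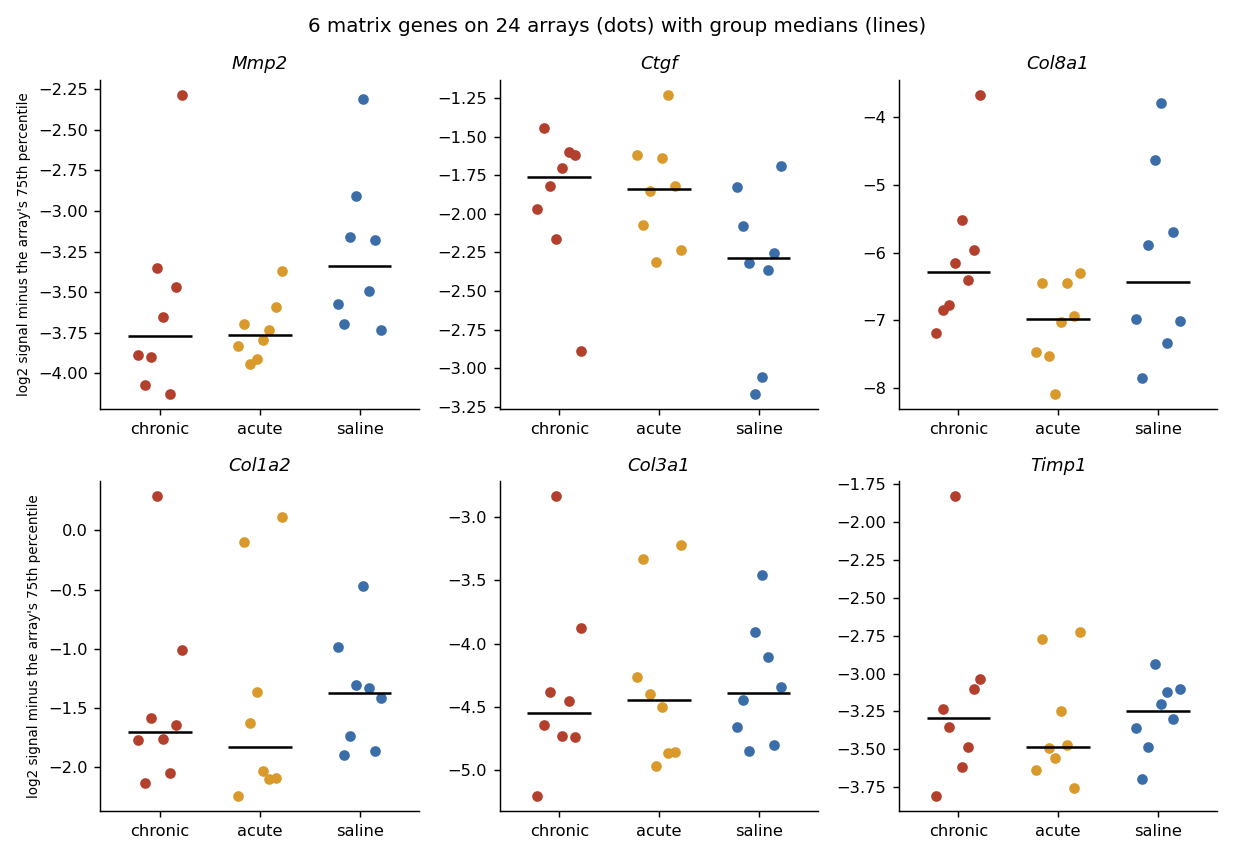
Log2 level of 6 members on each of the 24 arrays (dots; vertical axis: log2 signal minus the array's 75th percentile) by group, with group medians as lines. All groups overlap for each gene, and in the chronic group single arrays stand far above the others, replicate 8 for Mmp2 and Col8a1 and replicate 4 for Col1a2, Col3a1 and Timp1.

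Choroid plexus markers moved with these 3 genes. This secretory tissue lies within the ventricles, and the dorsal striatum borders a ventricle wall. All 6 measured markers of the 10 listed (Ttr, Kcnj13, Folr1, Aqp1, Otx2 and Sostdc1) were lower in chronic and in acute than in saline rats, with median log2 differences of -2.03 and -1.29. At an unadjusted p under 0.05 (limma) 4 of these 6 were counted in chronic and 2 in acute, where 2.87% and 1.59% of all genes were. None of these markers passed after adjustment. Their mean level over units was -4.60 ± 1.82 in chronic, -3.65 ± 1.03 in acute and -2.34 ± 2.20 in saline units (SD, n = 6 each). Of the 6 markers 2 were well above background on all 24 arrays, and Kcnj13 on 10. Over 24 arrays Mmp2 followed this level with r = 0.85 (0.91, 0.87 and 0.83 within slides), Col8a1 with r = 0.70 and Ctgf with r = -0.70. Without the 3 arrays highest in choroid plexus and lowest in cortical excitatory neuron markers, those values were 0.72, 0.34 and -0.38. The differences of Mmp2 were then -0.33 for chronic minus saline and -0.30 for acute minus saline, and those of Ctgf 0.36 and 0.31, where main values were -0.38, -0.51, 0.51 and 0.56. The 5 ependymal markers were all lower in chronic and in acute than in saline rats (medians -0.88 and -0.55), as were 5 of the 6 thalamus and septum markers (medians -0.59 and -0.39). Of the 8 cortical excitatory neuron markers 8 were higher in chronic and 6 in acute (medians 0.56 and 0.27), and all 9 striatal projection neuron markers were higher in both (medians 0.21 and 0.24). At the same unadjusted threshold 2 ependymal markers were counted in chronic and 0 in acute, and 1 thalamus and septum marker in each. Of the cortical and striatal neuron markers 0 were counted in either. Of the 12 lists, the one with the largest correlation with Ctgf in size over 24 arrays was thalamus and septum (r = -0.73; -0.68, -0.94 and -0.13 within slides 1, 2 and 3, and -0.52 without the 3 arrays). The part of these tissues in the differences was not tested. In tissue pieces, fewer cells of a type and less RNA per cell cannot be told apart.

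Among the other metalloproteinases, Mmp14, the membrane protease that activates Mmp2, ran from -3.49 to -1.53 in chronic, from -3.19 to -2.03 in acute and from -3.39 to -1.36 in saline arrays. Its differences were -0.21 ± 0.22 for chronic minus saline and -0.01 ± 0.22 for acute minus saline, and its second probe gave -0.25 in the first of these. The further membrane-type enzymes Mmp16 and Mmp24 were among the 5 steadiest members, with differences of 0.12 ± 0.12 and 0.07 ± 0.10 for chronic minus saline. Of the 8 measured metalloproteinases 3 were higher and 5 lower in chronic and likewise in acute than in saline rats, and 1 in each comparison (Mmp2) had an unadjusted p under 0.05. Mmp9, gelatinase B, a metalloproteinase much studied in drug-related plasticity, was well above background on 2 of 24 arrays and was not measured. Mmp3, stromelysin, reached 5 of 24, among them 3 of 8 acute arrays, just under the detection rule, and Mmp12, the macrophage elastase, reached 0.

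By their main probes the inhibitors had no unadjusted p under 0.05. Timp1, the inducible inhibitor, ran from -3.81 to -1.83 in chronic, from -3.76 to -2.73 in acute and from -3.70 to -2.94 in saline arrays, and differed by 0.12 ± 0.25 for chronic minus saline and -0.07 ± 0.25 for acute minus saline. Timp2, which also takes part in Mmp2 activation, differed by -0.18 ± 0.15 and -0.08 ± 0.15, and Timp4 by -0.30 ± 0.25 and -0.21 ± 0.25. The 3 kept probes of Timp3, a matrix-bound inhibitor, disagreed. For acute minus saline its main probe gave -0.13 ± 0.14 and its 2 others, well above background on 17 and 18 arrays, gave -0.60 ± 0.28 and -0.29 ± 0.23. For chronic minus acute the main probe gave 0.06 ± 0.14 and the others 0.42 ± 0.28 and 0.59 ± 0.23. Both other probes followed the main one weakly over 24 arrays (r = 0.18 and 0.29). By main probes all 4 inhibitors were below 0 in acute minus saline, where 49.1% of all genes were higher. In tested alternatives each reached a value above 0 (up to 0.04, 0.09, 0.05 and 0.04 for Timp1, Timp2, Timp3 and Timp4).

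Fibrillar collagens, the chains of types I, II, III, V, XI, XXIV and XXVII, had no unadjusted p under 0.05 in any comparison. Col1a2 ran from -2.13 to 0.29 in chronic arrays (median -1.70), from -2.24 to 0.11 in acute arrays (median -1.83) and from -1.90 to -0.47 in saline arrays (median -1.37). The groups overlapped over nearly their whole range, and its differences were 0.07 ± 0.36 for chronic minus saline and -0.01 ± 0.36 for acute minus saline. Col1a1 gave -0.06 ± 0.29 and 0.01 ± 0.29, and its second probe -0.07 and 0.06. Col3a1, the reticular collagen that lies beside type I, gave 0.02 ± 0.35 and 0.06 ± 0.35. Col11a1, a chain of the thin type XI fibrils, was the lowest of them in chronic minus saline. It ran from -4.80 to -3.61 in chronic (median -3.98), from -4.36 to -3.16 in acute (median -3.78) and had a lowest value of -4.35 and a median of -3.87 in saline arrays, so the groups overlapped. Its differences were -0.27 ± 0.21 for chronic minus saline, -0.10 ± 0.21 for acute minus saline and -0.17 ± 0.21 for chronic minus acute. With normexp and with the letter as a random block its chronic difference had an unadjusted p under 0.05, but it was -1.06 on slide 2 alone and 0.13 on slide 3 alone. Col2a1, the cartilage collagen, gave -0.10 ± 0.31 and -0.37 ± 0.31, and Col27a1 -0.06 ± 0.10 and -0.13 ± 0.10. The type V chains Col5a1 and Col5a2 gave 0.12 ± 0.25 and -0.03 ± 0.10 for chronic minus saline, and Col5a2 was among the steadiest members (SD 0.17 over 24 arrays). Of the 11 fibrillar genes, 6 were higher in chronic and 5 in acute than in saline rats, and 0 had an unadjusted p under 0.05. Col24a1 was well above background on 4 chronic, 4 acute and 0 of 8 saline arrays, and its detection bound allows no fold.

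Basement membrane genes included the steadiest member. Lamc1, the laminin gamma chain common to most laminins, had an SD of 0.11 over 24 arrays, and its differences were 0.02 ± 0.08 for chronic minus saline and 0.05 ± 0.08 for acute minus saline. Col4a1, a chain of the type IV network, ran from -3.05 to -2.39 in chronic, from -2.71 to -2.12 in acute and from -2.98 to -2.24 in saline arrays, and differed by -0.07 ± 0.12 and 0.05 ± 0.12. Col18a1, the endostatin precursor of vessel basement membranes, differed by 0.14 ± 0.19 and 0.09 ± 0.19. Lama2 (muscle and vessel laminin) differed by -0.20 ± 0.29 and -0.33 ± 0.29, Lama5 by 0.16 ± 0.23 and -0.03 ± 0.23 and Lamb2 by 0.06 ± 0.15 and -0.14 ± 0.15. Col4a6, a further type IV chain, gave -0.07 ± 0.26 and 0.13 ± 0.26, and -0.21 ± 0.26 for chronic minus acute. None of the 10 had an unadjusted p under 0.05 in a comparison. Lama1, of the pial basement membrane, was above background on 0 arrays, and Col4a2, Lama4 and Lamb1 were not analysed here.

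Among the 14 other collagens, Col8a1 alone had an unadjusted p under 0.05, and only in acute against saline. Col6a3, a chain of the type VI microfibrils of connective tissue, differed by -0.43 ± 0.37 for chronic minus saline and -0.15 ± 0.37 for acute minus saline, and Col6a2 by 0.06 ± 0.18 and -0.09 ± 0.18. Col9a1 and Col9a3 code for chains of 1 collagen type that decorates fibrils, and their values pointed opposite ways. Col9a1 gave 0.57 ± 0.39 and 0.58 ± 0.39, and Col9a3 gave -0.27 ± 0.20 and -0.26 ± 0.20. The second probe of Col9a1 gave 0.24 ± 0.30 and -0.04 ± 0.30. Col7a1, of anchoring fibrils, gave 0.23 ± 0.17 and 0.20 ± 0.17. Col6a5, well above background on 13 arrays, gave -0.06 ± 0.29 and 0.11 ± 0.29.

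The ADAMTS family supplied 16 members. Adamts4, an aggrecanase that also cuts the brain proteoglycan brevican, ran from -0.70 to 0.15 in chronic, from -0.69 to 0.15 in acute and from -0.74 to 0.33 in saline arrays. Its differences were -0.10 ± 0.16 for chronic minus saline and -0.06 ± 0.16 for acute minus saline, and those of Adamts1, another proteoglycan-cutting enzyme, -0.04 ± 0.18 and -0.05 ± 0.18. Adamts14, a procollagen amino-propeptidase, gave 0.43 ± 0.24 for chronic minus saline and 0.44 ± 0.24 for chronic minus acute (limma, adjusted p = 0.999 and 0.96). Adamts6 and Adamts7 lay at opposite ends of the family in acute minus saline. Adamts6 gave 0.41 ± 0.28 for chronic minus saline and 0.36 ± 0.28 for acute minus saline, and Adamts7, which cuts cartilage oligomeric matrix protein, gave -0.23 ± 0.19 and -0.25 ± 0.19. Adamts19 gave 0.44 ± 0.38 and -0.06 ± 0.38, with 0.50 ± 0.38 for chronic minus acute, and Adamts18 gave 0.21 ± 0.26 and -0.18 ± 0.26, with 0.39 ± 0.26. By main probes, the 95% interval of each of these differences included 0. Adamts17 gave 0.09 ± 0.11 and 0.15 ± 0.11, and the ADAMTS-like gene Adamtsl1, well above background on 13 arrays, 0.22 ± 0.32 and 0.02 ± 0.32. The probes of Adamts3, a procollagen amino-propeptidase, disagreed, with 0.12 ± 0.26 and -0.16 ± 0.26 against 0.22 ± 0.32 and 0.32 ± 0.32 for the second. In chronic minus saline 10 of the 16 were higher and in acute minus saline 5, and 0 had an unadjusted p under 0.05 in either. The aggrecanase gene Adamts5 was well above background on 3 of 24 arrays and was not measured.

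Glycoproteins and proteoglycans apart from Ctgf varied within their spread. Cyr61, like Ctgf a matrix-bound signalling protein, ran from -6.21 to -4.70 in chronic, from -6.34 to -4.91 in acute and from -6.20 to -5.33 in saline arrays. Its differences were 0.26 ± 0.22 for chronic minus saline and 0.20 ± 0.22 for acute minus saline. Fn1, fibronectin, gave 0.13 ± 0.13 and 0.11 ± 0.13, and Bgn, the proteoglycan biglycan, 0.12 ± 0.14 and 0.05 ± 0.14. Dcn and Lum, the small proteoglycans decorin and lumican that bind collagen fibrils, gave -0.07 ± 0.19 and -0.04 ± 0.19 for Dcn, and -0.34 ± 0.32 and -0.19 ± 0.32 for Lum. Lum was well above background on 1 of 8 chronic, 5 of 8 acute and 3 of 8 saline arrays, and thus counted as measured through the acute group alone. One name match, Col4a3bp (now Cert1), codes for a ceramide transfer protein and no collagen, and gave 0.12 ± 0.09 and 0.04 ± 0.09.

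The members spread more widely between arrays than the median gene. The median SD over 24 arrays was 0.397 for members and 0.278 for all genes, and 57 of 70 members lay above the median of all genes. Among genes well above background on all 24 arrays the medians were 0.307 for the 40 such members and 0.225 for all 14163 such genes. Col8a1 had the largest SD (1.14, percentile 99.3 of all genes), but 14 of its 24 arrays were not well above background, so its lower end is not a measured level. It was followed by Col26a1, Col6a3, Adamts2 and Col9a1 (0.84, 0.84, 0.83 and 0.81). Of these 5 genes only Col6a3 was well above background on over 16 arrays, with 21. Little of the members' variance followed treatment or slide. Over the averaged units, a median of 5.58% lay between treatment groups (all genes 7.85%). Over the 24 single arrays, a median of 9.41% lay between slides (all genes 6.86%). The treatment share and the slide share thus have different bases and are not compared with each other.

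Arrays of a shared letter were no more alike than others: in a fit with the letter as a random block, the consensus correlation within letters over all genes was -0.37. Col1a2 was 0.11 on acute replicate 8 and -2.24 on acute replicate 1, which share a letter. Col8a1 was -3.67 on chronic replicate 8 and -6.41 on chronic replicate 6, and -3.78 on saline replicate 5 and -7.84 on saline replicate 2. Within the 6 such pairs the median gap was 0.89 for Col1a2, 0.45 for Col3a1, 1.48 for Col8a1, 0.79 for Ctgf and 0.44 for Mmp2.

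As a whole the members did not vary together more than other genes do. The median Pearson r over 24 arrays was 0.07 among the 2415 pairs of members and 0.02 among pairs of all genes, and 9.40% of member pairs had r over 0.5, against 9.33% of all gene pairs. A few small clusters stood out, at a height of r = 0.7 in an average linkage, a height chosen after the values were seen. Their members were chosen by these correlations, which are therefore descriptions.

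**Figure D3:**
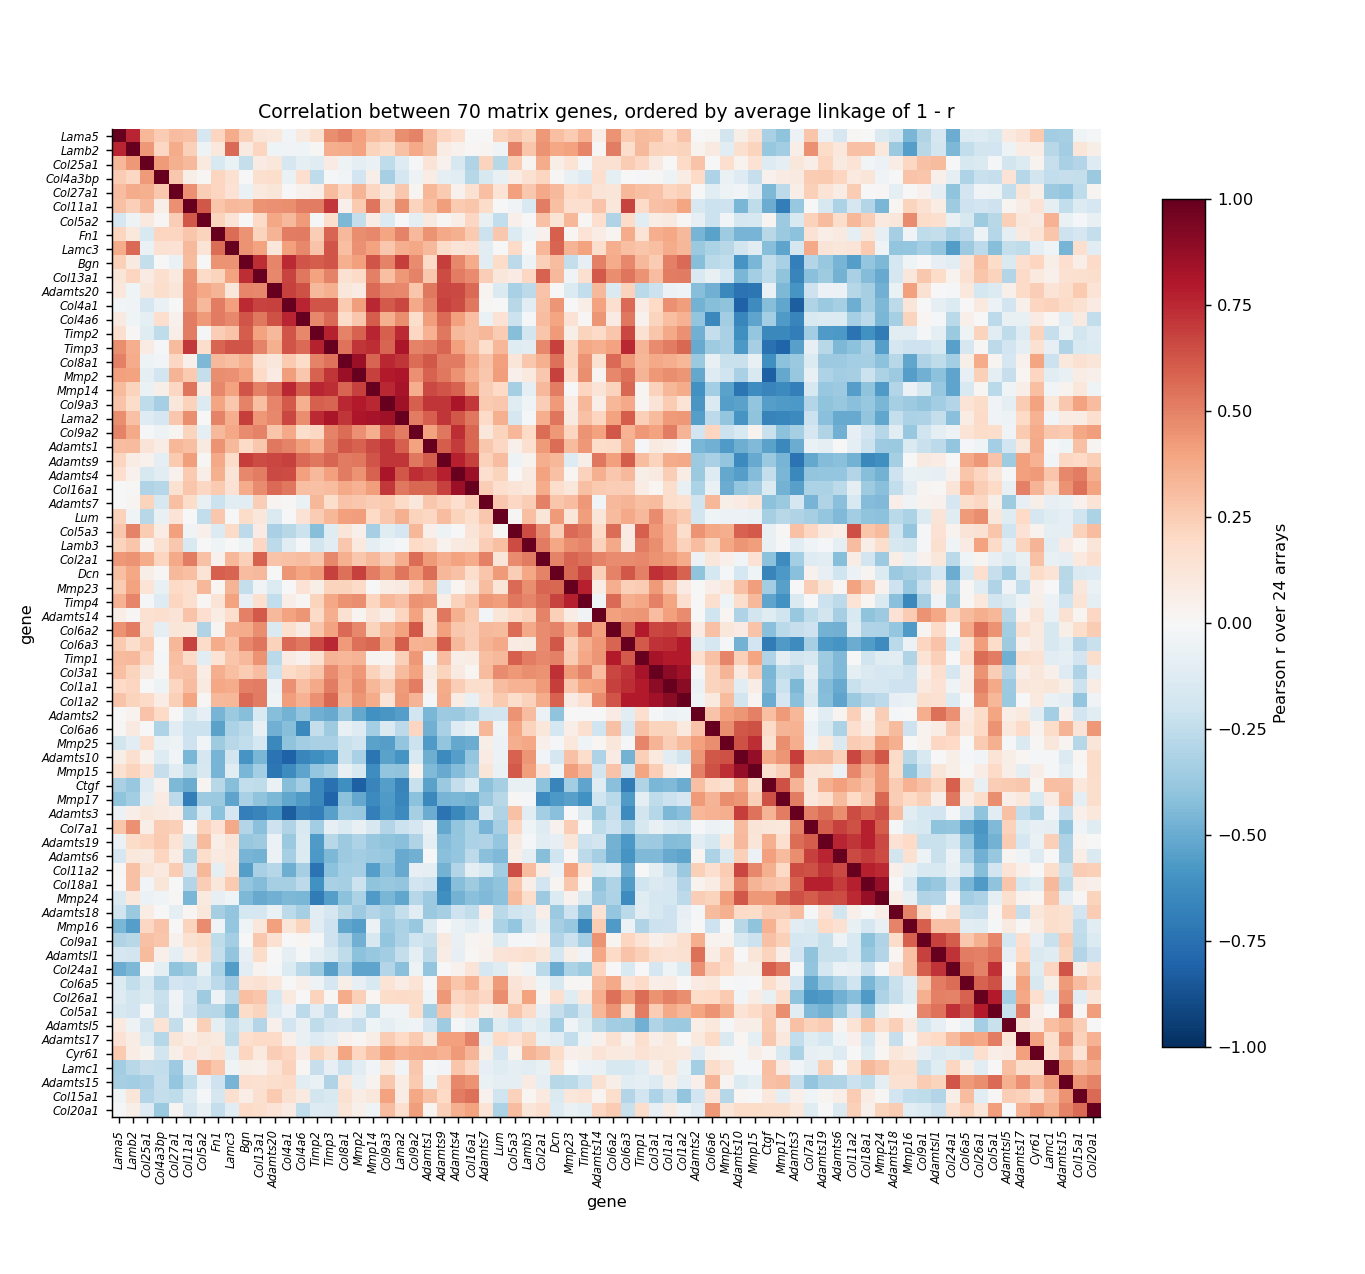
Pearson r between the 70 members over 24 arrays (colour, blue for -1 to red for 1), ordered by average linkage. The red blocks near the diagonal hold Timp1, Col3a1, Col1a1 and Col1a2 (the tightest 4) with Col6a3, and Col8a1, Mmp2, Mmp14, Col9a3 and Lama2, while Ctgf is blue against Mmp2.

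The first cluster joined the classical connective tissue genes Col1a1, Col1a2, Col3a1, Col6a3 and Timp1, with a median r of 0.80 (lowest 0.61, highest 0.91). It held within slides 1, 2 and 3 (median r of 0.76, 0.86 and 0.87), within the chronic, acute and saline arrays (0.89, 0.89 and 0.75) and without the 3 arrays high in choroid plexus markers (0.82). Chronic replicate 4, acute replicate 8 and acute replicate 2 were the arrays on which its genes were highest on average. None of these is a saline array, so the median r of 0.75 within the saline arrays was reached without them. Over all groups together the cluster was not examined without them. How far its median r of 0.80 rests on them was thus not tested. Col1a2 was 0.29, 0.11 and -0.10 there and at most -0.47 on every other array, and Col3a1 was -2.84, -3.22 and -3.33 there. A list of leptomeningeal and perivascular fibroblast markers that holds none of these genes (8 of 9 measured, Slc22a6, Slc6a13 and Aldh1a2 among them) was highest on the same 3 arrays. It correlated with Col3a1, Col1a2, Col1a1, Timp1 and Col6a3 at r = 0.92, 0.89, 0.89, 0.82 and 0.75. By rank these values were lower (Spearman rho = 0.78, 0.73, 0.84, 0.60 and 0.54). The list's mean level ran from -3.71 to -1.83 in chronic, from -3.50 to -1.99 in acute and from -3.42 to -2.67 in saline arrays, and its median difference was 0.00 for chronic minus saline and 0.08 for acute minus saline. Fibroblasts of the meninges and of vessel walls are the known source of type I and III collagen in brain. Col6a3 followed the thalamus and septum list more closely (r = 0.86) and was also high on saline replicates 4 and 5. Col1a2 went with that list at r = 0.55 (rho = 0.76). Blood cell markers went with Col3a1, Col1a2, Col1a1, Timp1 and Col6a3 at r = 0.60, 0.61, 0.68, 0.66 and 0.41. By rank the blood values were rho = 0.57, 0.60, 0.74, 0.73 and 0.37. The part of each list in the cluster was not tested.

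The second cluster joined Mmp2, its activator Mmp14, Lama2, Col8a1 and Col9a3, with a median r of 0.77. Within slides it was 0.52, 0.82 and 0.77, and without chronic replicate 8 and saline replicates 4 and 5 it was 0.47, so that much of it rests on these 3 arrays. On them Mmp14 was -1.53 (chronic replicate 8), -1.36 (saline replicate 5) and -1.80 (saline replicate 4), and at most -2.03 elsewhere. Lama2 and Col9a3 correlated with the choroid plexus list at r = 0.81 and 0.83 (0.63 and 0.66 without the 3 arrays). Ctgf ran against this cluster. Its r with Mmp2 was -0.81 (Spearman rho -0.67), with -0.79, -0.86 and -0.91 within slides and -0.55 without the 3 arrays.

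**Figure D4:**
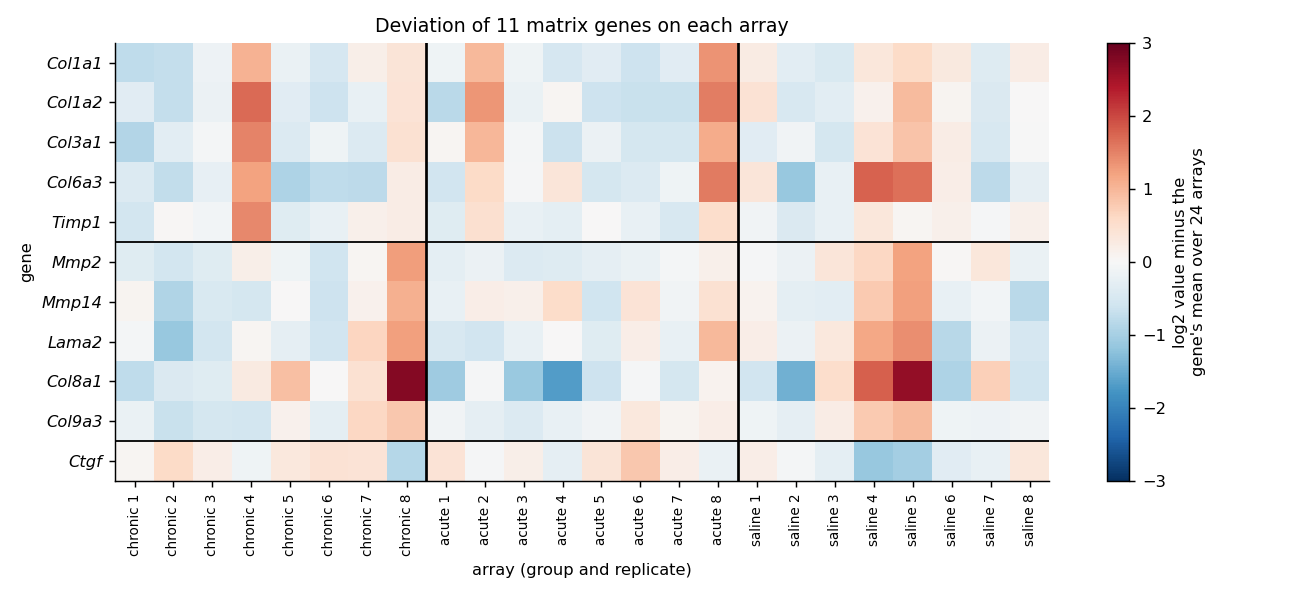
Deviation of 11 members from their own mean on each array (colour, log2), arrays grouped as chronic, acute and saline. The upper 5 genes are high together on chronic replicate 4, acute replicates 2 and 8, the middle 5 on chronic replicate 8 and saline replicates 4 and 5, where Ctgf is low.

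A pair of small clusters had other partners. Adamts4, Adamts9 and Col16a1 (median r of 0.78) followed glial lists. Adamts4 and Col16a1 correlated with oligodendrocyte markers at r = 0.74 and 0.73, and Adamts9 with astrocyte markers at r = 0.69. Within slides 1, 2 and 3 these were 0.27, 0.89 and 0.62 for Adamts4, 0.49, 0.88 and 0.51 for Col16a1 and 0.51, 0.75 and 0.54 for Adamts9. Col18a1, Mmp24 and Col11a2 (median r of 0.78) varied with neuronal or mural lists. Col18a1 correlated with the striatal projection neuron list at r = 0.89 (0.95, 0.92 and 0.85 within slides, 0.88 without the 3 arrays), Mmp24 with the same list at 0.81, and Col11a2 with mural cell markers at 0.79. Mmp17, a membrane-type metalloproteinase, followed the cortical excitatory neuron list (r = 0.86, and 0.81 without the 3 arrays). In all, 5 of 70 members (7.14%) correlated above 0.7 with the fibroblast list, where 0.201% of all genes outside the list did. With the choroid plexus list 4 did (5.71%, all genes 0.479%), with the oligodendrocyte list 3 (4.29%, all genes 0.713%), with the striatal neuron list 5 (7.14%, all genes 2.56%) and with the cortical list 3 (4.29%, all genes 2.48%). The ependymal, mural and thalamus and septum lists had 2 members each (2.86%, all genes 1.45%, 2.48% and 1.82%), and the astrocyte list 1 (1.43%, all genes 0.297%). The endothelial, microglial and blood lists had 0, where all genes had 0.842%, 0.129% and 0.0431%, so 0 of 70 is close to these shares. Below -0.7 lay 4 members with the cortical list and 4 with the thalamus and septum list (5.71% each, all genes 1.07% and 2.03%), and 1 each with the choroid plexus and ependymal lists. With the 3 arrays left out, those 4 cortical values were -0.22 (Adamts1), -0.44 (Timp3), -0.53 (Mmp14) and -0.22 (Lama2). The 4 choroid plexus values above 0.7 were then 0.72 (Mmp2), 0.66 (Col9a3), 0.63 (Lama2) and 0.45 (Mmp14). The 5 fibroblast values stayed between 0.77 and 0.92. Shares of all genes were not counted without these arrays. The correlations with lists share arrays, labelling and scaling, and the part of tissue makeup in them was not tested.

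**Figure D5:**
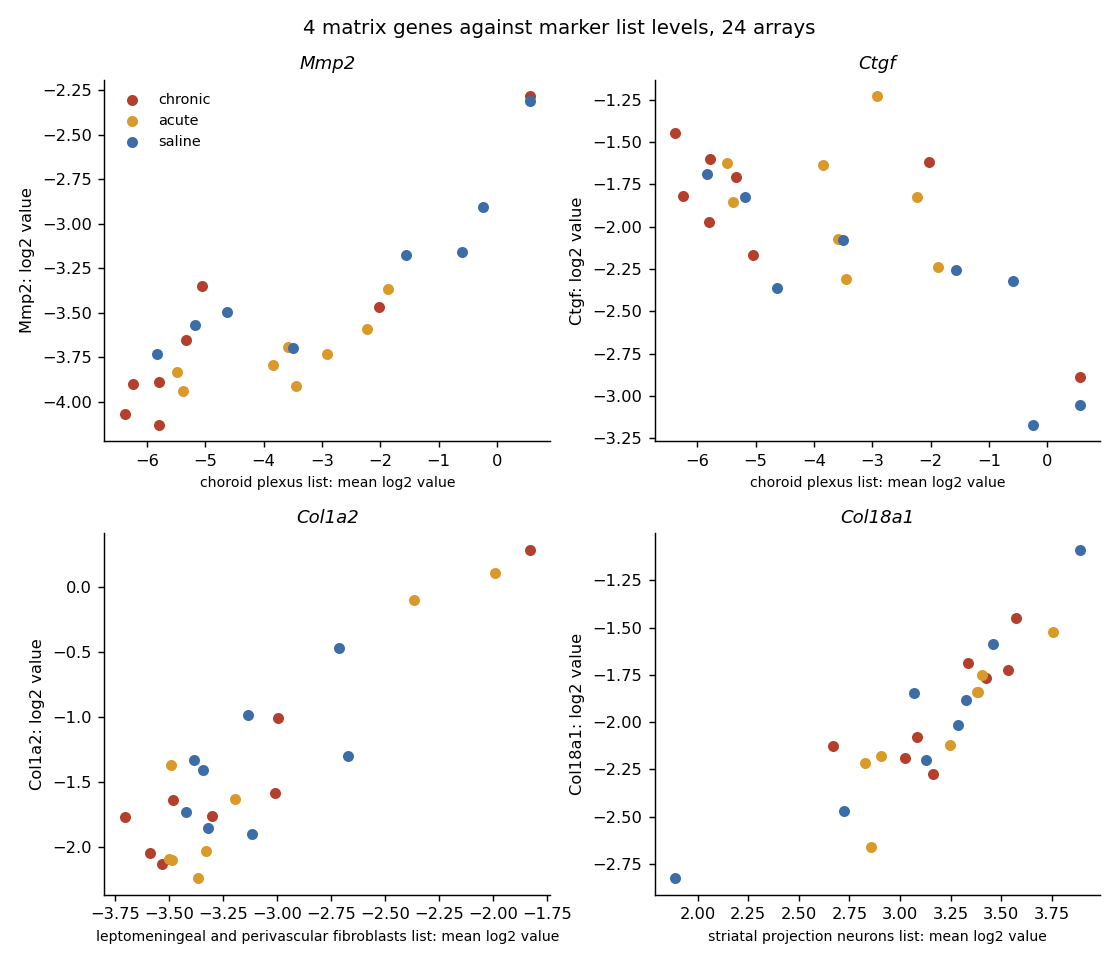
Log2 levels of Mmp2, Ctgf, Col1a2 and Col18a1 (vertical) on 24 arrays against the mean log2 level of a marker list (horizontal), coloured by group. Mmp2 goes up and Ctgf down along the choroid plexus list (r = 0.85 and -0.70), and Col1a2 goes up with the fibroblast list and Col18a1 with the striatal projection neuron list (both r = 0.89). The groups overlap along each line, but the median choroid plexus level was -5.56 in chronic, -3.52 in acute and -2.53 in saline arrays.

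Of 10 relations listed for testing over the 18 units, 8 could be measured, with two-sided permutation tests (100000 permutations) adjusted over the 8. Values within slides are over the 8 single arrays of a slide, since arrays of a shared letter lay on different slides. They therefore differ from the main values in both slide and unit. Col1a1 and Col1a2, whose products form 1 triple helix, correlated at r = 0.90 (rho = 0.85; permutation p = 1e-05 for r, the smallest they can give, and 5e-05 for rho; adjusted p = 4e-05 and 0.0002). Within slides it was 0.87, 0.89 and 0.98, and 0.82 when the 2 units most distant from the median were left out. Col1a1 and Col3a1 correlated at r = 0.92 (rho = 0.89; permutation p = 1e-05 and 2e-05; adjusted p = 4e-05 and 0.00016), with 0.86, 0.95 and 0.92 within slides and 0.85 without the 2 units. All 3 genes also followed the fibroblast list (r = 0.89, 0.89 and 0.92 for Col1a1, Col1a2 and Col3a1), and its part in both relations was not tested.

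Dcn and Lum correlated at r = 0.48 (rho = 0.61; permutation p = 0.0407 and 0.00855; adjusted p = 0.0814 and 0.0228), with 0.21, 0.79 and -0.10 within slides, so the relation did not hold within slides 1 and 3. Without the 2 units most distant from the median it was 0.72 (adjusted permutation p = 0.00403), and without the 3 arrays high in choroid plexus markers 0.37 (adjusted permutation p = 0.226). Dcn and the meningeal fibroblast transporter gene Slc6a13 correlated at r = 0.56 (rho = 0.50; permutation p = 0.0153 and 0.0344; adjusted p = 0.0408 and 0.0688), with 0.19, 0.62 and 0.57 within slides. Without the 2 units most distant from the median it was 0.39 (adjusted permutation p = 0.214), so by this check the relation rests on those units. Without the 3 arrays it was 0.67 (adjusted permutation p = 0.00742), and with group means taken out 0.62 (adjusted permutation p = 0.0149).

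The other 4 relations did not pass. Ctgf and Cyr61, both with the TEAD letters in the sequences printed above, correlated at r = 0.17 (rho = 0.33; permutation p = 0.506 and 0.189; adjusted p = 0.506 and 0.302), and at 0.33, -0.27 and -0.06 within slides. Without the 2 units most distant from the median it was 0.40. Without the 3 arrays high in choroid plexus markers it was 0.69 (adjusted permutation p = 0.0072, 17 units). Mmp2 and Timp2 correlated at r = 0.35 (rho = 0.18; permutation p = 0.154 and 0.471; adjusted p = 0.246 and 0.538), with 0.72, 0.68 and 0.58 within slides and -0.02 without the 2 units. Over 24 arrays taken as independent it was 0.59 and passed (adjusted permutation p = 0.00493), and without the 3 arrays it was 0.05 (adjusted permutation p = 0.842). Col1a2 and Ttr correlated at r = -0.19 (rho = -0.19; permutation p = 0.461 and 0.451; adjusted p = 0.506 and 0.538), with 0.21, 0.11 and 0.10 within slides. Over 24 arrays taken as independent it was 0.10. For Col4a1 and the endothelial gene Cldn5, r was -0.18 (rho = -0.14; permutation p = 0.465 and 0.588; adjusted p = 0.506 and 0.588), with -0.18, -0.18 and -0.46 within slides. Without the 2 units most distant from the median these last 2 were -0.03 and -0.34. Col4a2 and Col6a1, the partners in the 2 relations left out, were not analysed here.

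For 3 members the 5 most similar genes outside the set were named by Pearson r over 24 arrays. Col1a2 was most like Fmod (fibromodulin, a proteoglycan that binds collagen fibrils, r = 0.92), Cpxm2 (0.90), Slc22a6 (an organic anion transporter of leptomeninges, 0.89), Mfap5 (a microfibril protein, 0.88) and Bmp7 (a growth factor made by the meninges, 0.88), with each between 0.85 and 0.99 within slides. Ctgf was most like Myh3 (0.88), Cplx3 (0.83), Vipr1 (0.81), Ddx19b (0.80) and Wnt10a (0.77). Without the 3 arrays those values were 0.68, 0.56, 0.36, 0.54 and 0.29, and on slide 1 alone 0.38, 0.39, -0.11, 0.72 and -0.08. Cplx3 is a known marker of the deepest cortical layer in rodents, where Ctgf is expressed too. The level of the cortical excitatory neuron list went with Ctgf at r = 0.70 over 24 arrays and at 0.04 without the 3 arrays. Col4a1 was most like Ccdc93, Apbb1ip, Rab34, Necap2 and Phf10 (0.91 to 0.89), and 222 genes had r over 0.8 with it, against 10 with Col1a2 and 4 with Ctgf.

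Genes that build, bind or steer the matrix gave the same picture of few differences. In 6 further lists 0 genes passed after adjustment in any comparison (limma). At an unadjusted p under 0.05 there were 1 of 14 genes of collagen processing in chronic against saline (P4ha3) and 1 in chronic against acute (P4hb), 1 of 19 matrix receptors in acute against saline (Ddr2), and 0 of 15 other glycoproteins, 7 perineuronal net genes, 16 genes of TGF-beta and YAP signalling and 9 protease regulators in each comparison. P4ha3, a collagen prolyl hydroxylase subunit, was well above background on 5 of 8 chronic, 3 of 8 acute and 0 of 8 saline arrays. It counted as measured through the chronic group alone, so its chronic difference is no independent support. Measured means were -6.04 in chronic and -7.06 in saline units, and the difference did not pass (limma, adjusted p = 0.999). With saline values raised to the lowest signals called above background, the chronic mean was 1.14-fold higher. This bound carries no sampling error. Ddr2, a receptor for fibrillar collagen, averaged -5.34 ± 0.37 in acute and -4.71 ± 0.53 in saline units (SD, n = 6 each), a log2 difference of -0.63 ± 0.25 (limma, adjusted p = 1.0). P4hb, the partner subunit of prolyl hydroxylase, averaged -0.06 ± 0.11 in chronic and -0.25 ± 0.10 in acute units (limma, adjusted p = 0.96). Among the perineuronal net genes Bcan, which codes for brevican, gave -0.14 ± 0.08 for chronic minus saline and -0.04 ± 0.08 for acute minus saline. Median differences of the 6 lists lay between -0.04 and 0.04 for chronic minus saline and between -0.08 and 0.00 for acute minus saline.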

How the data were processed

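Total RNA of 24 samples was labelled with Cy3 and put on one-colour Agilent arrays. Per the file headers, the processed signals are spot intensities that Feature Extraction background-subtracted and detrended within each array (version 10.7 per the submitters' processing notes), with no normalization between arrays. The authors' deposited value table holds log2 values on another scaling and served as an alternative. Control spots and spots flagged uneven or outlying were left out, spots of a probe were averaged, and values are log2 processed intensities minus the array's 75th percentile. Of 45598 probes 26259 were kept (well above background on a 0.5 share of the arrays of some group). Arrays sharing a title letter were averaged into 18 units. Replicate numbers follow accession order and pair nothing. The 3 groups were compared in limma 3.58.1 (lmFit, contrasts, eBayes; R 4.3.3) with p-values adjusted by Benjamini-Hochberg over the 20902 genes (threshold 0.05), and the comparison was tested on simulated data. Correlations, permutation tests and figures used scipy 1.17.1, pandas 2.3.3, numpy 2.4.6 and, for plots, matplotlib 3.10.9, under Python 3.11.15. Array number limits the precision. Probe positions are those of the files (rn4), and promoters are RefSeq's (GRCr8).

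The members, lists, relations and tests were chosen with earlier results of these data known. Genes named are a list of 35 given whatever their values (28 were measured), the 5 members with the smallest p in each direction per comparison, the 10 largest and 5 smallest SDs, the tightest cluster of at least 4, and genes whose probes differ by over 0.4, in all 48 members, and at most 4 genes of each further list. Others, among them those given for their fit to a marker list, were named after their values were seen. Alternatives were quantile normalization, normexp, the authors' values, other filters, probe means, outlier spots kept, 24 arrays (independent, letter block or slide block), each slide, only the compared groups, trended robust moderation, each unit left out, and arrays that stand apart left out. Leaving out those 3 arrays for spread and clusters was added after seeing the data.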

Additional observations from a re-analysis of the deposited data

Results flagged for a closer look

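Of 144 sets of 8 arrays (48 named members in 3 groups), 12 held an array whose gap to its neighbour was too large for the set's range by Dixon's test at the 95% level, and chance gives about 1 in 20 sets, or 7.2. Several of the 12 fell on arrays on which the genes of a cluster were high together. Some named members were chosen for a large SD or for the tightest cluster in these same values, and genes share arrays. The count of 12 is therefore not independent of that choice and is no test against 7.2. On chronic replicate 8, Mmp2 was -2.28 (next -3.35), Col8a1 -3.67 (next -5.52) and Adamts1 -2.55 (next -3.23). On chronic replicate 4, Col1a2 was 0.29 (next -1.01) and Timp1 -1.83 (next -3.03). Timp4 was -0.58 on saline replicate 4 (next -1.71), and Adamts14 was -4.41 on acute replicate 8 (next -5.66). Adamts3 was -3.29 on chronic replicate 2 (next -4.39). Low values were Adamts18 at -6.90 on acute replicate 7 (next -5.74), Lum at -8.07 on acute replicate 4 (next -7.06), Adamts2 at -7.30 on saline replicate 5 (next -5.90) and Col26a1 at -7.39 on saline replicate 2 (next -5.66); these 4 genes were well above background on 19, 9, 14 and 16 of 24 arrays. Causes were not tested.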

How the results depend on the processing

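The count of 0 members and 0 genes past the adjusted threshold held in each comparison under all 31 alternatives with a test, so that it depended on none of them. The members' median log2 difference stayed within the spread between units except for chronic minus saline with normexp (-0.14, where all genes had -0.06) and acute minus saline on slide 2 alone (-0.24). The cause was not tested. With each unit left out it ran from -0.02 to 0.06, from -0.08 to 0.03 and from 0.03 to 0.08 in chronic minus saline, acute minus saline and chronic minus acute. Members at an unadjusted p under 0.05 numbered 2 in chronic against saline (0 with 24 independent arrays, 10 with normexp, where 7.65% of all genes were), 3 in acute against saline (2 to 5) and 0 in chronic against acute (0 to 2). With 24 independent arrays Mmp2 was -0.34 and -0.48 and Ctgf 0.44 and 0.50 for chronic and acute minus saline. Over tested alternatives acute minus saline ran from -0.59 to -0.29 for Mmp2 and from 0.31 to 0.69 for Ctgf, and chronic minus saline from -0.46 to -0.06 and from 0.35 to 0.64. Of 144 differences of named members, 137 changed sign in at least 1 alternative or slide. The median r of Mmp2, Mmp14, Lama2, Col8a1 and Col9a3 (0.77) was 0.52 on slide 1 and 0.47 without chronic replicate 8 and saline replicates 4 and 5, and that of Col1a1, Col1a2, Col3a1, Col6a3 and Timp1 lay between 0.76 and 0.87. Relations past the threshold numbered 3, and 2 to 4 in alternatives. No paired analysis was possible because replicate numbers were given in accession order. Signals near background limit Col8a1, Lum, Col24a1 and Adamtsl5.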

Other observations

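The genes most like Mmp2, Col8a1 and Col18a1 were looked up after the values of these members were seen. Over 24 arrays Mmp2 was most like Aqp1 (the water channel of choroid plexus epithelium, r = 0.93), Nt5dc2 (0.92), Igf2 (a growth factor of choroid plexus and meninges, 0.92), Cgnl1 (a junction protein, 0.91) and Kcnj13 (a potassium channel of choroid plexus epithelium, 0.91). Without chronic replicate 8 and saline replicates 4 and 5 these were 0.74, 0.73, 0.81, 0.63 and 0.83. Col8a1 was most like Epn3 (0.87), Steap1 (0.86), Pdlim2, Prr32 and Cgnl1 (0.84 each), and 0.69, 0.68, 0.49, 0.62 and 0.41 without the 3 arrays. Aqp1 and Kcnj13 are themselves in the choroid plexus list.

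Col18a1 was most like Coro7 (0.94), Il10ra (0.93), Kcnd1 (a potassium channel, 0.92), Rasgrp2 (a guanine nucleotide exchange factor abundant in striatal projection neurons, 0.92) and Adra2c (an adrenergic receptor of the same neurons, 0.91), with 0.89 or more without the 3 arrays. It had r over 0.8 with 129 genes, against 31 for Mmp2 and 16 for Col8a1.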
